A study of Homo sapiens with 4 samples.

Results

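The ribosomal protein genes were examined in single-cell transcriptomes of the human embryonic stem cell (hESC) line KhES1, an established line, and of blastoids derived from these cells. Members were all genes whose symbol is RPL or RPS followed by a number, with an optional letter, together with RPSA, RPLP0, RPLP1 and RPLP2, and without the Y-linked RPS4Y genes. The rule found 83 genes among the 23364 genes listed in any table. Of these, 31 encode proteins of the small subunit, 46 encode proteins of the large subunit, and 6 are paralogs named after a canonical gene, namely RPL22L1, RPS27L, RPL39L, RPL26L1, RPL7L1 and RPL3L. All groups share the KhES1 line, so 1 genetic background is described.

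The hESC group holds 2 samples (hESC 1 and hESC 2) kept on Matrigel in mTeSR-1 medium, with 10 µM Y27632, a ROCK inhibitor, on the first day after passaging. The blastoid group holds 2 samples (blastoid 3 and blastoid 4). Blastoids are cell aggregates used as a model of the blastocyst, the embryo before it implants. Dissociated cells were aggregated for 24 h in mTeSR-1 with 10 µM Y27632, embedded in a 10% PNIPAAm-β-PEG hydrogel under DMEM with 10% FBS for 3 days, and then fed daily with iBlastoid medium. The titles of the blastoid samples carry day 0 and the names of their tables carry day 9; the sample descriptions decided the groups. No label says that the samples of a group came from separate cultures, so p-values measure only the spread between these samples, which may be technical.

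Ribosomal proteins assemble with ribosomal RNA into the small subunit, which decodes mRNA, and the large subunit, which forms peptide bonds. Their mRNAs are among the most abundant of a growing cell, and in most of them transcription starts at a C within a run of pyrimidines, the terminal oligopyrimidine or TOP motif, through which growth signals control their translation. A few canonical genes have a paralog that can take the place of the canonical protein in the ribosome, and some paralogs are known to be used in particular cell types.

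The starts of paralogs and of their canonical partners, and of 2 canonical genes that fell in blastoids, are shown because the TOP run is the sequence feature most members share. Each sequence is from RefSeq (GRCh38.p14) and covers 10 bases before the annotated start and 20 bases from it, 5′ to 3′ on the strand of the gene. Capitals mark an unbroken run of C and T that begins with a C at the start, and a sequence with no capitals has no such run of at least 5 bases there.
RPL22 (chr1:6199576-6199605, minus strand): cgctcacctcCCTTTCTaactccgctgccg
RPL22L1 (chr3:170870176-170870205, minus strand): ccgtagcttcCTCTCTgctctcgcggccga
RPS27 (chr1:153990752-153990781, plus strand): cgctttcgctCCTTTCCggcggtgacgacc
RPS27L (chr15:63157458-63157487, minus strand): gatgccgagcgcagatcgcttgcagcttgc
RPL26 (chr17:8383174-8383203, minus strand): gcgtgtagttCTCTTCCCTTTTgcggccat
RPL26L1 (chr5:172958719-172958748, plus strand): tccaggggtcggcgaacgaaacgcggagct
RPL7L1 (chr6:42879606-42879635, plus strand): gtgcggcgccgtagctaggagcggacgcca
RPL12 (chr9:127451387-127451416, minus strand): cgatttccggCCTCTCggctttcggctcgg
RPL27A (chr11:8682782-8682811, plus strand): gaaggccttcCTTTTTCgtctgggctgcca

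RefSeq start sequences matched 66 of the 83 members. A C followed by at least 4 more C or T at the annotated start was found in 47 of the 66 (71.2%), against 802 of 11611 other tested genes (6.91%). With a run allowed to begin within 5 bases of the start, the counts were 54 of 66 members (81.8%) and 29.3% of the other genes. On the opposite strand the same search found 7.58% of members and 19.9% of other genes. Among the paralogs with a sequence, RPL22L1 carries the run, and RPS27L, RPL26L1 and RPL7L1 do not. In windows of 300 bases (250 before and 50 after the start, both strands) the ETS core CCGGAA was in 57.6% of members and 32.4% of other genes. The YY1 core GCCATC was in 34.8% and 18.2%, the GC box GGGCGG in 57.6% and 76.3%, and the TATA sequence TATAAA in 9.09% and 8.73%. These matches describe letters in a window and not binding.

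After filtering, 9612 cells were kept, with 1919 to 3175 cells and 13269422 to 17738422 UMIs per sample. UMIs are random tags by which amplified copies of a molecule are recognised and counted as 1. Median UMIs per cell were 5771, 4996, 6206 and 8802 in hESC 1, hESC 2, blastoid 3 and blastoid 4, and mitochondrial UMIs made up 11.2%, 11.2%, 8.72% and 9.82%. The hESC tables share 1317 cell barcodes and the blastoid tables share 1035, against 6 to 14 between a table of each group. Among kept cells, 1310 in hESC 2 and 1013 in blastoid 4 carry a shared barcode, against 26 in hESC 1 and 0 in blastoid 3. The share and the number of members called between all blastoid and hESC cells are also given without these cells. Comparisons within or between cell classes were not repeated without them. The 12 markers of pluripotency were all detected in hESC samples, with 6431 and 6635 summed counts per 1e+06 UMIs, and summed to 1190 and 1099 in blastoids. In hESC 1 and hESC 2, 8 and 9 of 16 mesoderm/mesenchyme markers (HAND1 and COL3A1 among them) and 8 of 13 trophectoderm/amnion markers (GATA3 and TFAP2A among them) were at 0.

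Ribosomal protein mRNAs made up between 22.3% and 26.3% of non-mitochondrial UMIs in the 4 samples. Their share was 26.3% in hESC 1, 24.6% in hESC 2, 22.3% in blastoid 3 and 24.5% in blastoid 4. Blastoid 3 was lowest and hESC 1 was highest, while hESC 2 and blastoid 4 differed by less than the samples within either group. The means were 25.5% ± 1.24 (SD, n = 2) and 23.4% ± 1.61 (SD, n = 2), so the difference of -2.06 percentage points was close to the spread within groups. Without the cells whose barcodes are shared, the shares were 26.33%, 26.30%, 22.26% and 25.18%.

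The large subunit genes held more of the UMIs than the small subunit genes in each sample. Small subunit genes held 11.05%, 10.3%, 9.47% and 10.5% of non-mitochondrial UMIs in hESC 1, hESC 2, blastoid 3 and blastoid 4. Large subunit genes held 15.1%, 14.2%, 12.7% and 13.99%. The paralogs were a small part, at 0.143% and 0.141% in hESC and 0.0758% and 0.0742% in blastoids, and here the groups did not overlap.

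Shares of single cells ranged widely within a sample, and single cells carry more counting error than sums over a sample. The central 90% of cells ran from 22.2% to 34.5% in hESC 1 and from 17.0% to 28.3% in blastoid 3. Shallow cells had the higher shares: cells above and below the median depth had medians of 25.6% and 29.0% in hESC 1, 24.1% and 26.7% in hESC 2, 21.8% and 23.6% in blastoid 3, and 24.3% and 25.03% in blastoid 4. Cells with at least 2000 UMIs (1804, 2202, 2171 and 1877 in the same order) were also thinned at random to 2000. The samples were then at 26.9%, 24.8%, 22.5% and 24.6%. Random thinning leaves the expected share of a cell unchanged, so it cannot show whether depth bears on the share.

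Cells were grouped by clustering without the ribosomal protein and mitochondrial genes, and clusters were named from fixed markers. All hESC cells were pluripotent-like. Blastoid 3 held 1755 mesoderm/mesenchyme-like, 434 trophectoderm/amnion-like and 85 pluripotent-like cells, and blastoid 4 held 1164, 643 and 100. A further 5 and 12 cells formed an unnamed cluster, with shares of 22.8% and 23.5%. Among the 3 named classes of each blastoid sample the share was lowest in mesoderm/mesenchyme-like cells (21.9% and 24.2%), higher in trophectoderm/amnion-like cells (23.0% and 24.8%) and highest in pluripotent-like cells (24.5% and 26.3%). The mesoderm/mesenchyme-like class was not uniform. Its cluster led by TECRL and PRPH (779 and 607 cells) was at 23.0% and 24.7%, close to the trophectoderm/amnion-like cells. Its cluster led by PBK and PITX1 was at 22.1% and 24.3%. The hESC samples, all pluripotent-like, were at 26.3% and 24.6%. Median UMIs per cell were also highest in pluripotent-like cells, at 8077 and 12811, against 6183 and 8398.5 in mesoderm/mesenchyme-like cells. Among clusters the lowest shares, 19.5% and 21.3%, were in stromal cells led by CXCL14 and POSTN, and the highest, 30.5% and 27.5%, in an hESC cluster led by metallothionein genes whose median depth was 1071 and 1055 UMIs.

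**Figure D1:**
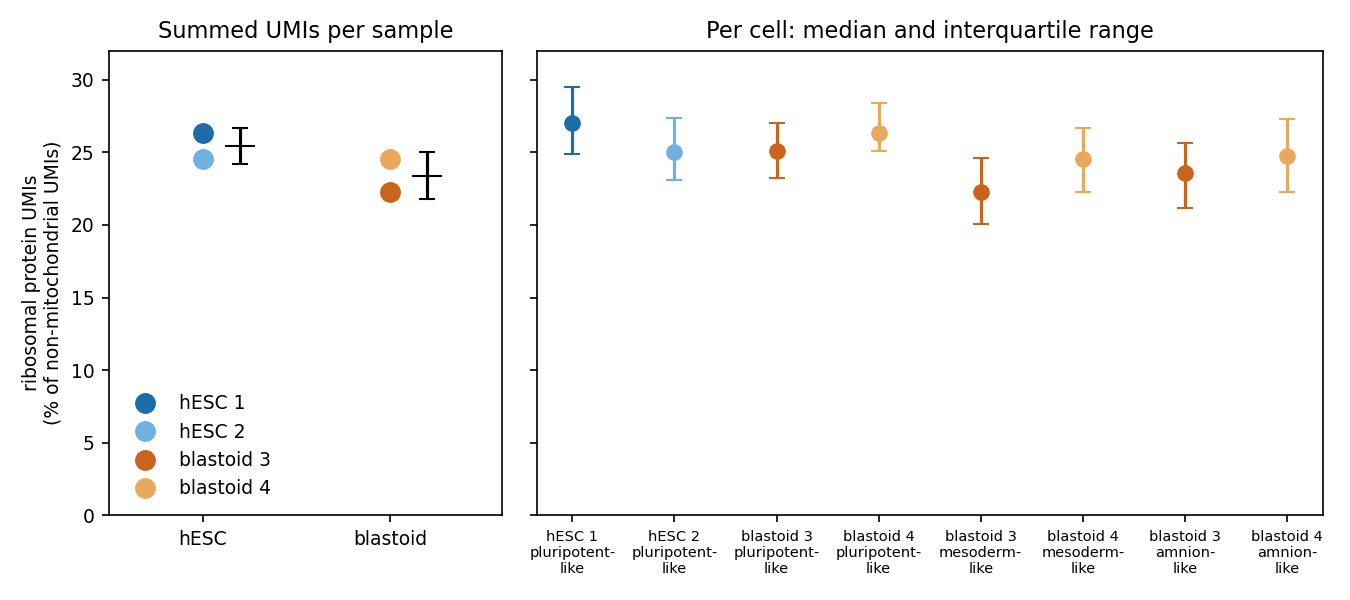
Share of ribosomal protein UMIs among non-mitochondrial UMIs (y axis, percent). Left, 1 point per sample with the group mean ± SD; right, the median over cells with the interquartile range, by sample and cell class. The hESC samples lie at 26.3% and 24.6% and the blastoid samples at 22.3% and 24.5%, and in both blastoid samples mesoderm-like cells lie lowest.

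Individual members lay closer to zero than genes overall between blastoids and hESC. Of 82 members tested, 12 were called lower and none higher by edgeR at an adjusted p under 0.05, against a background of 50.1% of 16330 genes called (27.2% higher and 22.9% lower). RPL3L, with 4, 0, 2 and 0 UMIs in hESC 1, hESC 2, blastoid 3 and blastoid 4, was not tested. At an unadjusted p under 0.05, 17 members were lower and 0 higher (all genes 26.3% and 30.9%), and DESeq2 called 18 lower and 0 higher (all genes with an adjusted p, 14.1% and 17.3%). Without the cells whose barcodes are shared, edgeR called 17 lower and 0 higher (all genes 21.3% and 25.1%). The median log2 fold change was -0.19 over members and 0.05 over all genes. Within 0.5 on the log2 scale lay 86.6% of members against 44.1% of all genes. All genes include many at low counts, and no set matched to the members by level was compared. Both blastoid samples were below both hESC samples for 43 members (background 36.5%), both were above for 1 member, RPL6 (background 41.5%), and the samples overlapped for 38. With scaling by library size alone, the median of all genes moved to 0.18 and that of members to -0.07.

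The 2 largest falls were those of the paralogs RPL39L and RPL22L1. RPL39L (chr3:187120948-187180908, GRCh38, GENCODE 29), a paralog of the exit tunnel protein RPL39, was at 181 and 171 counts per 1e+06 UMIs (CPM) in hESC 1 and 2 and at 52.6 and 51.2 in blastoid 3 and 4. Both blastoid samples lay far below both hESC samples, a log2 fold change of -1.76 ± 0.12 (SE, adjusted p = 4.25e-05). RPL22L1 (chr3:170864875-170870483), a paralog of RPL22, an RNA-binding protein of the large subunit, was at 343 and 356 CPM in hESC and at 111 and 134 CPM in blastoids, a change of -1.51 ± 0.14 (adjusted p = 0.000166). RPS27L (chr15:63125872-63158021), a paralog of RPS27 and a known p53 target, was at 594 and 529 CPM in hESC and 276 and 277 CPM in blastoids, a change of -1.02 ± 0.13 (adjusted p = 0.000724). In these 3 genes the groups did not overlap, and the call held in each of the 14 alternative fits.

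The other paralogs moved less. RPL26L1 was at 86.2 and 83.5 CPM in hESC and 65.2 and 66.0 CPM in blastoids (-0.37 ± 0.12, adjusted p = 0.0349), a call that held in 8 of 14 alternatives. RPL7L1 was at 141 and 156 CPM in hESC and 133 and 136 CPM in blastoids and was not called (-0.14 ± 0.12, adjusted p = 0.379).

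The canonical partners were not called. RPL39 was at 3462, 3087, 2830 and 3381 CPM in hESC 1, hESC 2, blastoid 3 and blastoid 4, RPL22 at 1951, 1845, 1552 and 1740 CPM, and RPS27 at 5309, 4868, 5620 and 5137 CPM. Their log2 fold changes were -0.08 ± 0.17, -0.21 ± 0.15 and 0.08 ± 0.16. RPL26 (-0.38 ± 0.19) and RPL7 (-0.16 ± 0.18) also missed the threshold.

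The share of the paralog among UMIs of its pair does not depend on how libraries are scaled. RPL22L1 made up 15.0% and 16.2% of its pair in hESC 1 and 2 and 6.70% and 7.14% in blastoid 3 and 4. RPS27L went from 10.1% and 9.79% to 4.67% and 5.12%, and RPL39L from 4.96% and 5.25% to 1.82% and 1.49%. For RPL26L1 (2.19%, 2.48%, 2.69% and 2.08%) and RPL7L1 (5.67%, 6.80%, 7.18% and 5.60%) the groups overlapped. The exact 95% intervals, which cover counting error only, were 14.5% to 15.4% for RPL22L1 in hESC 1 and 6.87% to 7.42% in blastoid 4. Reads that fit a paralog and its partner or a pseudogene could be split or lost in the authors' counting, which was not tested.

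**Figure D2:**
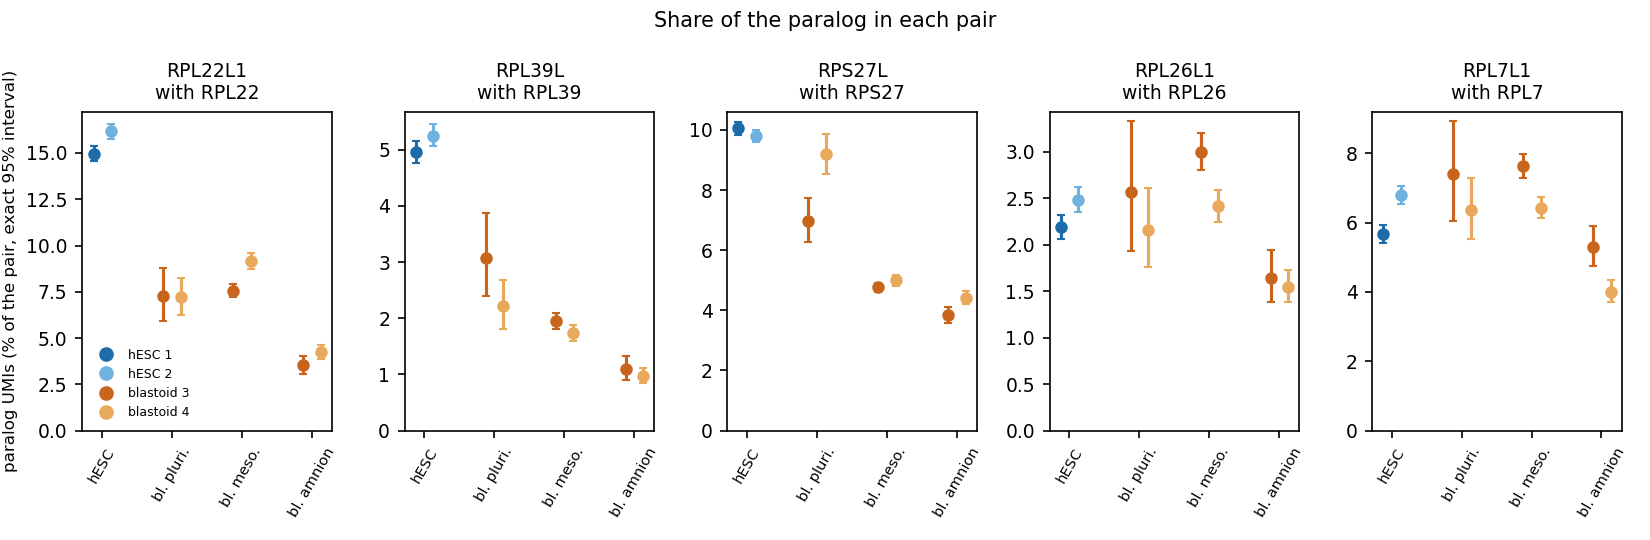
Share of paralog UMIs in each paralog and canonical pair (y axis, percent, with exact 95% intervals) in hESC samples and in pluripotent-like (pluri.), mesoderm/mesenchyme-like (meso.) and trophectoderm/amnion-like cells of blastoids (bl.), with 1 point per sample. RPL22L1 falls from 15.0% and 16.2% in hESC to 7.25% and 7.20% in pluripotent-like blastoid cells and to 3.54% and 4.23% in amnion-like cells.

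Among canonical members, 8 of 77 (10.4%) were called lower, against 22.9% of all genes. RPL27A, of the large subunit, was at 2297 and 2068 CPM in hESC and at 1371 and 1020 CPM in blastoids (-0.87 ± 0.18, adjusted p = 0.00638). In this gene blastoid 4 lay below blastoid 3, while most members lay the other way.

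Among the other falls was RPL3 (4532, 3917, 2410 and 2771 CPM in hESC 1, hESC 2, blastoid 3 and blastoid 4), a core protein near the peptidyl transferase centre, at -0.71 ± 0.17. RPL12, at the base of the stalk, was at 3974, 3428, 2023 and 2607 CPM (-0.68 ± 0.19), and RPS7 was at 3310, 2749, 1691 and 2273 CPM (-0.61 ± 0.20). RPL24 and RPL17, called outside the 8 largest falls and named after their values were seen, changed by -0.56 ± 0.15 and -0.50 ± 0.18. In each of these genes both blastoid samples were below both hESC samples.

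Leaving out an hESC sample leaves 1 sample in that group, which is then assumed to vary like the blastoids. RPL3, RPL12, RPS7, RPLP1, RPL24, RPL17 and RPL26L1 missed the threshold when either hESC sample was left out, and RPL27A when hESC 1 was (adjusted p = 0.075). Some fold changes stayed close to their values from all samples: without hESC 1 and without hESC 2, RPL3 was at -0.60 and -0.81, RPL24 at -0.51 and -0.60, and RPL26L1 at -0.35 and -0.40. Others moved more. With each sample left out in turn, RPS7 ran from -0.87 to -0.40 and RPLP1 from -0.83 to -0.38. RPL12 ran from -0.90 to -0.49 and RPL17 from -0.69 to -0.35. RPL17 also missed the threshold among cells with at least 1000 genes (adjusted p = 0.0568). Without hESC 1, hESC 2, blastoid 3 or blastoid 4, edgeR called 4, 5, 16 and 46 members, of which 1 member in each of the last 2 fits was higher. The same fits called 27.9%, 29.2%, 58.5% and 58.0% of all genes.

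Stalk, 5S particle and other reference members differed among themselves. RPLP1, an acidic stalk protein that recruits translation factors, was at 6786 and 5994 CPM in hESC and 3674 and 4869 CPM in blastoids (-0.58 ± 0.20, adjusted p = 0.0401). Its partners RPLP0 (-0.23 ± 0.18) and RPLP2 (0.06 ± 0.16) were not called. RPL5 and RPL11, which bind 5S ribosomal RNA and can inhibit MDM2, changed by -0.12 ± 0.15 and -0.33 ± 0.16, and RPSA, also known as a laminin receptor, by 0.07 ± 0.17, none of them called. Of the 4 ribosomal proteins outside the symbol rule, RPL36AL was called lower (-0.64 ± 0.15, adjusted p = 0.00939), and FAU (-0.24 ± 0.22) and RACK1 (-0.27 ± 0.16) were not called.

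**Figure D3:**
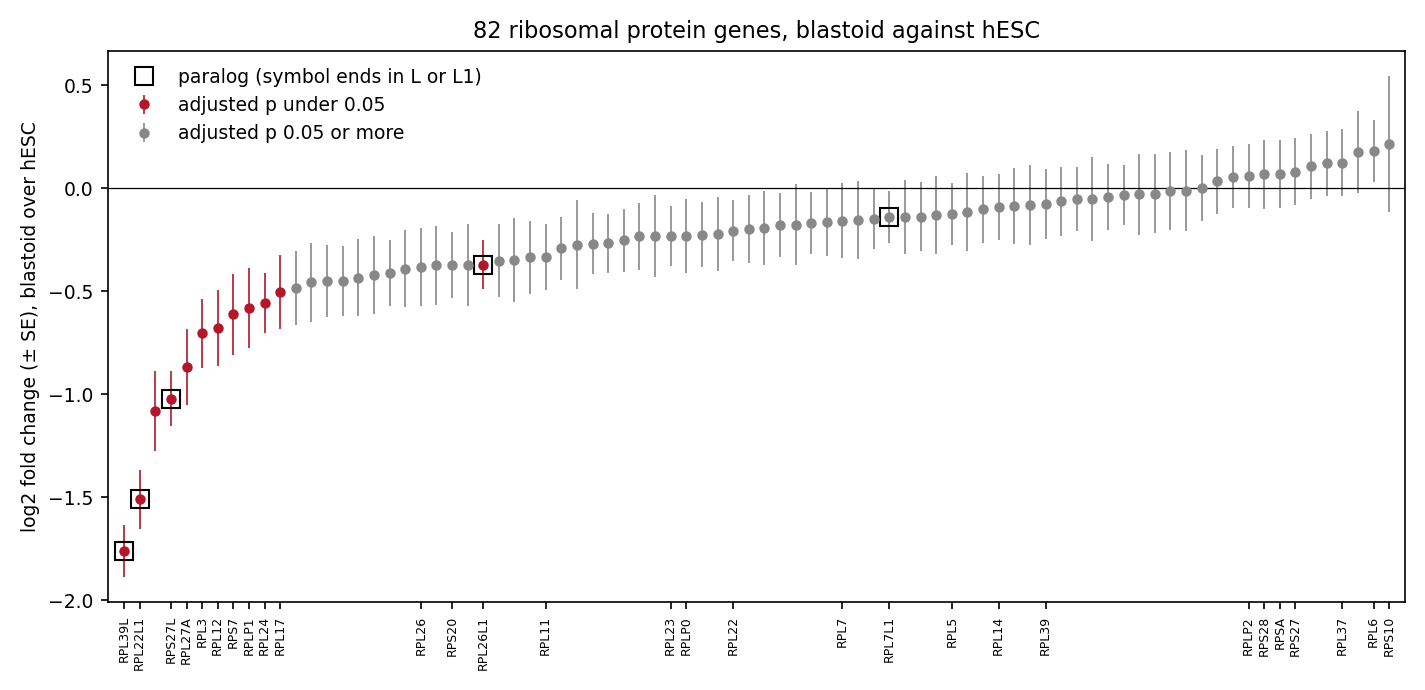
Log2 fold change of blastoid over hESC (y axis, ± SE) for 82 tested members, ordered by size on the x axis (members named in the text are labelled), with the 12 called members in red and the paralogs boxed. RPL39L and RPL22L1 lie lowest at -1.76 and -1.51, and 71 members lie within 0.5 of zero.

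The samples of a group also differed. Blastoid 4 had the higher CPM for 71 of 82 members than blastoid 3, with a median log2 ratio of 0.24 and an SD of 0.257, and 7 members differed by more than 0.5 (8.54%, near the 9.04% of all genes above 100 CPM, whose SD was 0.304). Between hESC 2 and hESC 1 the median was -0.13, the SD 0.118, and 0 members differed by that much. RPS10 (199, 274, 174 and 376 CPM in hESC 1, hESC 2, blastoid 3 and blastoid 4) stood farthest apart, with a ratio of 1.11 between the blastoid samples. The annotation places RPS10-NUDT3 over it on the same strand. Such an overlap with a coding gene is annotated for 9 members, RPL17, RPL22 and RPL26 among them. Its part in the counts was not tested. RPS10 was 0.85 to 1.04 higher in blastoid 4 in each of 5 clusters compared, whereas RPL27A was lower by -0.60 to -0.51.

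**Figure D4:**
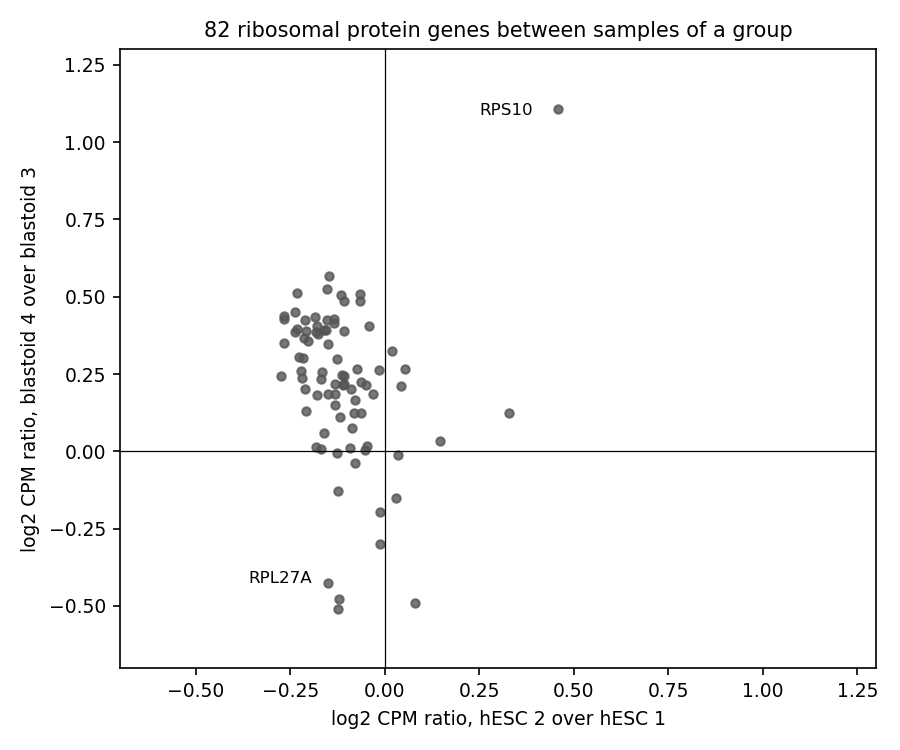
Log2 CPM ratio of hESC 2 over hESC 1 (x axis) and of blastoid 4 over blastoid 3 (y axis), 1 point per tested member. Most points lie above zero on the y axis (71 of 82) and RPS10 stands apart at 1.11.

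Within pluripotent-like cells, RPL22L1 and RPL39L were again lower in blastoids and RPS27L was not called. Of 82 members, 5 were called lower and none higher between blastoid and hESC cells, against a background of 21.7% of 14126 genes (11.5% higher and 10.2% lower). At an unadjusted p under 0.05 the counts were 13 lower and 3 higher (all genes 17.5% and 17.8%), and DESeq2 called 9 lower and 0 higher (all genes with an adjusted p, 4.28% and 5.80%). The class holds different clusters in each group: nearly all hESC cells lie in the cluster led by AL117378.1 and TMEM132B (1802 and 2156 cells) and in the metallothionein-led one (436 and 1019), while 61 and 92 of the blastoid cells lie in a cluster led by TMPRSS11E and NODAL and 24 and 8 in the metallothionein-led one. RPL22L1 was at 341 and 350 CPM in hESC and 139 and 151 CPM in blastoid cells (-1.24 ± 0.15, adjusted p = 1.36e-05), and RPL39L at 179 and 168 CPM against 98.6 and 85.0 CPM (-0.94 ± 0.16, adjusted p = 0.000377). Other called members included RPL27A (-0.87 ± 0.18) and RPL3 (-0.66 ± 0.17). RPS27L was not, at 589 and 520 CPM in hESC against 480 and 551 CPM in blastoid cells (-0.10 ± 0.15, adjusted p = 0.679). Its CPM overlapped between the groups. Its share of the pair did not, at 10.1% and 9.79% in hESC against 6.98% and 9.20% in blastoid cells. The exact 95% intervals of hESC 2 (9.59% to 10.0%) and blastoid 4 (8.54% to 9.88%) overlapped.

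These blastoid cells number only 85 and 100, and the markers of pluripotency summed to 5053 and 4637 counts per 1e+06 UMIs in them. Mesoderm/mesenchyme markers summed to 372 and 236, against 72.8 and 76.4 in hESC, with 1 of 16 at 0 in each, and trophectoderm/amnion markers to 752 and 824 against 486 and 468. Of 19 dissociation stress genes 11 were called higher in the blastoid cells (all genes 11.5%), with a median log2 fold change of 0.78. Their part in the result was not tested. The call of RPL3 was lost without hESC 1 (adjusted p = 0.246) or hESC 2 (adjusted p = 0.0538). Without each sample in turn the number of calls ran from 3, without hESC 1 (12.2% of all genes called), to 22, without blastoid 4 (13.2%).

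Between the main blastoid classes, most canonical members were lower and most paralogs higher in mesoderm/mesenchyme-like cells. In mesoderm/mesenchyme-like against trophectoderm/amnion-like cells, with the sample as a block, 61 of 82 members were called lower and 7 higher, against a background of 52.9% of 14646 genes (25.7% higher and 27.2% lower). The median was -0.20 over members and 0.01 over all genes. Of 77 canonical members 61 were lower and 3 higher, among them RPL14 (0.27 ± 0.04) and RPL6 (0.15 ± 0.03). Scaling by library size alone moved the median of all genes to 0.16 and the split to 33 lower and 17 higher. Without the block 3 members were called, RPL22L1, RPL39L and RPL7L1, each of them higher. The shares of all genes called in these fits are not given here.

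The canonical members moved by little. RPS20 was lowest, at 1663 and 1238 CPM in mesoderm/mesenchyme-like cells of blastoid 3 and 4 and at 2250 and 1868 CPM in trophectoderm/amnion-like cells (-0.51 ± 0.04). RPL12 (-0.43 ± 0.03), RPL23 (-0.41 ± 0.04), RPL37 (-0.39 ± 0.03) and RPS28 (-0.39 ± 0.03) followed. RPS20, RPL23, RPL37, RPS28 and RPL14 were named after their values were seen, as the ends of this order.

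Of the 5 tested paralogs, 4 were higher in mesoderm/mesenchyme-like cells. RPL22L1 was at 123 and 162 CPM in those cells of blastoid 3 and 4 and at 69.1 and 92.2 CPM in trophectoderm/amnion-like cells (0.82 ± 0.08, adjusted p = 4.09e-09). RPL39L was at 55.4 and 58.0 CPM against 36.1 and 37.2 CPM (0.63 ± 0.11), RPL7L1 at 142 and 158 against 106 and 104 (0.52 ± 0.08), and RPL26L1 at 70.4 and 72.4 against 47.4 and 56.1 (0.45 ± 0.10). RPS27L was at 270 and 253 CPM against 279 and 285 CPM and was not called (-0.11 ± 0.06, adjusted p = 0.154). The share of RPL22L1 in its pair was 7.56% and 9.14% in mesoderm/mesenchyme-like cells and 3.54% and 4.23% in trophectoderm/amnion-like cells. Genes of the dissociation stress response moved with this comparison, with 18 of 19 lower in mesoderm/mesenchyme-like cells (all genes 27.2%), and their part in the result was not tested.

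**Figure D5:**
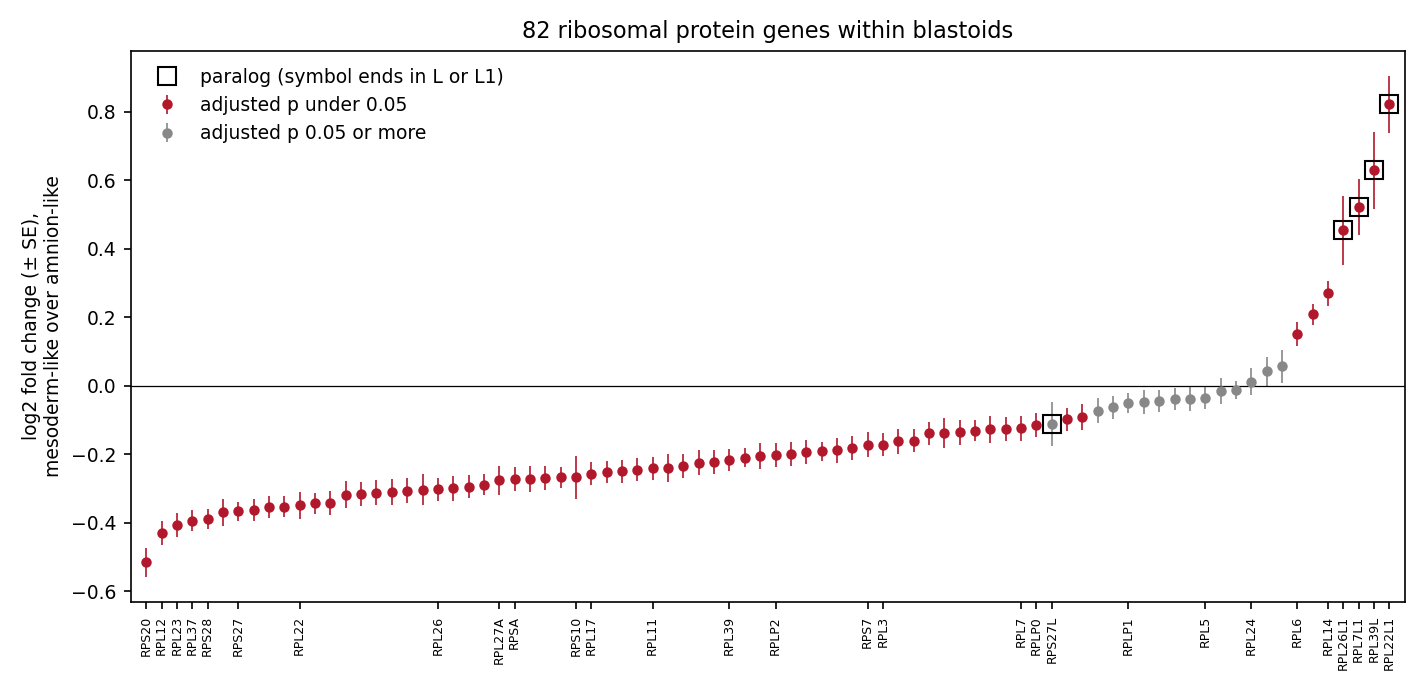
Log2 fold change of mesoderm/mesenchyme-like over trophectoderm/amnion-like cells within blastoids (y axis, ± SE, sample as a block) for 82 members, ordered by size on the x axis (members named in the text are labelled). The 4 called paralogs, boxed in red, lie at the upper end from 0.45 to 0.82, and most canonical members lie below zero. Under scaling by library size alone 17 members were called higher and 33 lower, and the share of all genes is not given.

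Both other classes were set against the pluripotent-like cells of the same blastoids, in a comparison added after the data were seen. Of the 5 tested paralogs, RPS27L and RPL39L were called lower in both classes and the other 3 only in trophectoderm/amnion-like cells. The paralogs were not tested against each other. RPS27L was lower in mesoderm/mesenchyme-like cells (-1.05 ± 0.08, adjusted p = 6.32e-09) and in trophectoderm/amnion-like cells (-0.96 ± 0.09). RPL39L was lower in both (-0.74 ± 0.14 and -1.37 ± 0.15). RPL22L1 was lower in trophectoderm/amnion-like cells (-0.90 ± 0.12), and in mesoderm/mesenchyme-like cells it changed by -0.07 ± 0.11 (adjusted p = 0.677). RPL26L1 and RPL7L1 were likewise called lower in trophectoderm/amnion-like cells (-0.71 ± 0.14 and -0.60 ± 0.12) and not called in mesoderm/mesenchyme-like cells (-0.24 ± 0.13 and -0.07 ± 0.11). Over all members, 56 were lower and 2 higher in mesoderm/mesenchyme-like cells (background 34.0% called), and 25 lower and 14 higher in trophectoderm/amnion-like cells (background 37.0%). These comparisons share the pluripotent-like cells.

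Of 42 ribosome biogenesis genes, 22 fell in blastoids against hESC and the other 20 did not pass, with a median of -0.45. Over all genes tested, 22.9% fell and 27.2% rose, with a median of 0.05. Among them were the histone chaperone NPM3 (110, 106, 33.3 and 40.8 CPM in hESC 1, hESC 2, blastoid 3 and blastoid 4; -1.54 ± 0.14) and the pre-ribosomal processing factor RRP12 (12.9, 15.0, 8.18 and 5.82 CPM in that order). Within pluripotent-like cells 3 rose and 2 fell (all genes 11.5% and 10.2%), with a median of 0.01. Between blastoid classes 29 were higher and 1 lower in mesoderm/mesenchyme-like cells (all genes 25.7% and 27.2%), with a median of 0.50, opposite in sign to the ribosomal protein median.

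Of 18 other translation genes with TOP mRNAs, 5 fell and 2 rose in blastoids, a share of falls near that of all genes (22.9%). NPM1, a nucleolar chaperone, was at 3315 and 2925 CPM in hESC and 1143 and 1239 CPM in blastoids (-1.39 ± 0.16), and NACA, of the nascent chain complex, changed by -0.64 ± 0.16. The initiation factor subunits EIF3F (0.57 ± 0.18) and EIF3L (0.50 ± 0.13) rose. Of 18 genes of growth control, 7 fell and 3 rose, against 22.9% and 27.2% of all genes. MYCL (-2.55 ± 0.18) and MYC (-1.58 ± 0.18), transcription factors known to drive ribosomal genes, fell, and MYCN rose (0.92 ± 0.20), as did TSC1 (0.59 ± 0.13), an inhibitor of mTORC1.

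The change was also set against the TOP run. In blastoids, 7 of the 54 members whose run lies near the start were called lower (median log2 fold change -0.21). Of the 12 without it, 3 were called lower (median -0.27), namely RPL17 and the paralogs RPS27L and RPL26L1. The share called lower among all genes was 22.9%, and their median was 0.05. Members with and without the run were not tested against each other. RPL22L1, which has the run, and RPS27L, which lacks it, both fell.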

How the data were processed

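Single-cell 3′ libraries (10x Chromium v3.1) of 4 samples were analysed. For each sample the authors deposited raw UMI counts, with genes as lines and barcodes as columns. Cell Ranger and GRCh38 are named in the submitters' processing notes, and versions and filters are not given in the sources used here. Cells with at least 500 genes and at most 20% mitochondrial UMIs were kept, and 68 of 9680 (0.702%) were removed as doublets by Scrublet (scanpy 1.11.5, expected rate 6%). Cells were clustered on 2000 variable genes without ribosomal protein and mitochondrial genes (30 components, 15 neighbours, Leiden resolution 0.5), and classes were rebuilt from fixed markers with at least 3 detected in 10% of cells, so they may differ from the study's own names.

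UMI counts were summed per sample, since cells are not replicates, and tested with edgeR 4.0.16 (quasi-likelihood, TMM, filterByExpr, Benjamini-Hochberg over all genes tested), called at an adjusted p under 0.05. CPM is TMM-scaled counts per 1e+06 UMIs. Standard errors are the log2 fold change divided by the square root of F. With 2 samples against 2, an exact permutation test cannot go below p = 0.33, so the share was not tested. DESeq2 1.42.0 and other scalings, filters, cell sets and left-out samples were alternatives. The fit was tested on simulated data. Members named are the 8 largest called falls and rises with a mean of at least 10 CPM, paralog pairs, stalk, 5S particle and RPSA, ribosomal proteins outside the rule, and of each list the 2 largest called rises and falls. Some genes that the rule names are not reported here. The members and lists were chosen with earlier results of these data known. Positions are from GENCODE 29. In that annotation 77 members have pseudogenes, of which 0 are in the tables.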

Additional observations from a re-analysis of the deposited data

How the results depend on the processing

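The share of ribosomal protein UMIs differed between groups by -3.19 to -0.92 percentage points when each sample was left out, and by -2.60 to -1.39 under the other alternatives, each within 1 replicate SD of the original value. For blastoid against hESC, leaving out each sample gave 4 to 46 called members. For pluripotent-like cells the calls were 11 with library size only (3 higher, 8 lower), 18 without a filter on low counts (1 higher, 17 lower), 9 with DESeq2, and 3 to 22 when each sample was left out. The shares of all genes called under library size only and without the filter are not given here. For the blastoid classes, the fit with no replicate block gave 3 calls in place of 68. With the block 52.9% of all genes were called, and the share without it is not given here. The block is the sample from which both classes came. Under library size only, RPL10 (0.10), RPL5 (0.11), RPL7 (0.0183), RPLP0 (0.0276) and RPLP1 (0.0908) reversed their sign between the classes. The cause was not tested. In pluripotent-like cells the log2 ratio of pair shares was -0.30 for RPS27L, against -1.02 over all cells, and -0.95 for RPL39L, against -1.62. With each sample left out, RPL39L ran from -1.78 to -1.49. No paired analysis was possible because hESC and blastoid samples share no replicate numbers. Over all alternatives and named genes, a call was lost 52 times and gained 29 times. With 2 samples per group and 85 and 100 pluripotent-like blastoid cells, small changes were not detectable and larger ones could be missed. In simulated counts, a log2 change of 1 was recovered for 90% of genes over all cells and 38% in pluripotent-like cells. A change of 0.5 was recovered for 4% and 1%. The changed genes were drawn from all genes above a low count floor, and most members have far higher counts. Rates for genes at the members' levels were not computed. The simulated dispersion, the spread between samples, was 0.02. The fitted values were 0.0193 over all cells and 0.00701 in pluripotent-like cells, where the simulation was thus noisier than the data.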

Other observations

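Mitochondrial ribosomal proteins, which are encoded in the nucleus and translate mitochondrial mRNAs, moved in both directions. Of 78 tested, 38 fell and 7 rose in blastoids against hESC, with a median log2 fold change of -0.39, against 22.9% and 27.2% of all genes and a median of 0.05. MRPL32 was at 111 and 101 CPM in hESC and 42.8 and 43.5 CPM in blastoids (-1.29 ± 0.13), and MRPL42 changed by -1.23 ± 0.13. MRPL40 (30.01, 24.9, 67.1 and 90.3 CPM in hESC 1, hESC 2, blastoid 3 and blastoid 4; 1.52 ± 0.18) and MRPL1 (1.25 ± 0.24) rose. Within pluripotent-like cells 13 of 77 fell and 8 rose (all genes 10.2% and 11.5%).

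Of 21 p53 target genes, 13 fell and 2 rose in blastoids (all genes 22.9% and 27.2%). DDB2, a DNA damage binding protein, changed by -2.27 ± 0.13, and GDF15, a secreted stress factor, by -2.05 ± 0.15, while BTG2 (1.40 ± 0.25) and PLK2 (1.22 ± 0.17) rose. Within pluripotent-like cells 5 fell and 3 rose (all genes 10.2% and 11.5%), with DDB2 lower (-0.65 ± 0.18) and GDF15 higher (1.00 ± 0.22). Of 19 dissociation stress genes, 15 rose in blastoids (all genes 27.2%), among them FOSB and JUN (5.43 ± 0.28).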
